A study of Mus musculus with 2084 samples.

Results

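Cholesterol synthesis and sterol transport genes were followed across cell types, brain regions, genotypes and days after ischemia in single cells from the stem cell lineage and glia of the adult mouse brain. The 32 member genes are a pathway list, matched by symbol in the main RNA count table, which holds 35606 gene identifiers. All 32 were found, and all 32 passed the filter on low counts in every fit described here. They comprise 18 enzymes of the route from acetyl-CoA to cholesterol, 5 genes of sterol sensing and the SREBP transcription factors, 4 genes of sterol transport inside the cell and storage, and 5 genes of export and lipoproteins. The rule names genes and uses no measured value, but the list was drawn up with earlier results of these data known.

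The cells came from the ventricular-subventricular zone (vSVZ), the stem cell niche lining the lateral ventricles, and from the striatum, cortex and olfactory bulb. The 11 biological replicates carry letters, and each letter stands for 1 or more mice. Since pJ holds naive as well as 2 d cells, 1 letter can cover several sets of animals. The cell types of wild-type (WT) naive mice were oligodendrocytes and the stages of the neuronal lineage, namely 2 quiescent stem cell states (qNSC1, then qNSC2), activated stem cells (aNSC), transit-amplifying progenitors (TAP) and neuroblasts, from letters pA to pE. By their titles, cells of pA to pC came from sorts named ASTRO, NB, NSC and OLIGO, vSVZ cells of pE from an NSC sort, and those of pD from a GLAST sort, so that sort and letter cannot be told apart for pD and pE. Letter pE also held WT striatal astrocytes, and letter pF held WT olfactory bulb neuroblasts and neurons taken along with the late migratory stream. Cortical and striatal astrocytes of letter pL came from WT mice with a TCF-Lef reporter, a transgene read out for Wnt signalling. Cells labelled IFN(A/G)R KO lack receptors for interferon alpha and gamma; they were taken 2 d after ischemia or were naive, both in letter pJ. The 2 d cells are labelled TiCY-IFN(A/G)R KO, and the naive ones IFN(A/G)R KO only. TiCY mice without the knockout were naive (pM) or were taken 2 d (pI) or 21 d (pH) after ischemia. In TiCY mice tamoxifen, given at 2 months of age, switches on a Cre driven from Tlx (Nr2e1) and, with it, lasting YFP production in vSVZ stem cells and what they give rise to. Ischemia was an occlusion of both carotid arteries 2 weeks later. WT mice received neither.

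Cells make cholesterol from acetyl-CoA through mevalonate, squalene and lanosterol. When membrane sterol falls, SCAP carries the SREBP factors from the endoplasmic reticulum to the Golgi for cleavage, and INSIG proteins hold that complex back when sterol is plentiful; the cleaved factors then raise transcription of the synthesis enzymes. Plasma lipoproteins hardly cross into the brain, which therefore makes its own cholesterol, and astrocytes pass it to other cells on particles that carry apolipoprotein E, while oligodendrocytes use large amounts for myelin.

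Promoter sequences of 3 synthesis enzymes are shown because each enzyme fell in at least 1 test below, had a single RefSeq promoter entry, and had no annotated exon in the window. They are RefSeq sequences of build GRCm38.p6, 5′ to 3′ on the gene's strand, ending at the base before the RefSeq start. Capitals mark CCAAT boxes, written ATTGG where the box lies on the other strand, and the sterol regulatory element TCACNCCAC. CCAAT boxes bind the factor NF-Y, a known partner of SREBP.
Hmgcs1: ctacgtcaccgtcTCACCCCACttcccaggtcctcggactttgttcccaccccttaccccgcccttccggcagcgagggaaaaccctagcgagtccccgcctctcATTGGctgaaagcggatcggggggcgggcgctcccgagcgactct
Nsdhl: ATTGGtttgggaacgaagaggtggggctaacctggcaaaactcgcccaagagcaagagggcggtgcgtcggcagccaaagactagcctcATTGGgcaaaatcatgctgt
Sc5d: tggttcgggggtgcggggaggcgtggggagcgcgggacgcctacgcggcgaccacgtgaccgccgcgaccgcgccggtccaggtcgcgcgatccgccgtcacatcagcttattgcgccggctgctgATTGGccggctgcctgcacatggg
The Hmgcs1 window is chr13:119690201-119690350 on the plus strand, that of Nsdhl is chrX:72918412-72918520 on the plus strand and that of Sc5d is chr9:42264301-42264450 on the minus strand. Hmgcs1 encodes the synthase that joins acetyl-CoA to acetoacetyl-CoA, Nsdhl a dehydrogenase that removes methyl groups from the lanosterol skeleton, and Sc5d the desaturase of a late step. RefSeq entries were found for 26 of the 32 members, and the 250 bases before each start were searched on both strands. CCAAT occurred in 21 of these 26 members, in 14 of 15 synthesis enzymes and 7 of 11 other members, against 37.5% of 27025 genes. TCACNCCAC occurred in Hmgcs1 alone among the members and in 1.22% of genes, and CACGTG occurred in 6 members (Hsd17b7, Sc5d, Dhcr7, Insig1, Scap and Abca1) and in 6.86% of genes. None of the CCAAT matches in members overlapped another motif searched. A match describes these letters and is not a shown binding site.

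The main table held 2584 cells, of which 1981 could be tied to a label and 603 could not and were not used. Cells had a median of 160621 counts (3771 to 1842234) and a median of 4994 genes, and the median cell had counts for 16 of the 32 members. Only 1 cell had none. Median counts per cell of the letters ran from 110133 in pJ at 2 d to 1000343 in pB, and pA, pB and pE were deeper than pC and pD. Oligodendrocytes and neuroblasts carried more of their own markers than qNSC1 did. Oligodendrocyte markers summed to 67030 to 92860 CPM, counts scaled to a fixed library total, in oligodendrocytes, against 141 to 467 CPM in qNSC1. Neuroblast markers summed to 2075 to 8825 CPM in neuroblasts, lowest in letter pD, against 10.9 to 96.7 CPM in qNSC1. TAP held 1016 to 4795 CPM of them, so TAP of pC lay above neuroblasts of pD. Stem cell markers summed to 1072 CPM in neuroblasts of pD, against 160 to 440 CPM in pA to pC. Proliferation markers summed to 1804 CPM in neuroblasts of pD, against 439 to 1740 CPM in pA to pC. Astrocyte markers summed to 99.1 to 960 CPM in neuroblasts and 18940 to 54960 CPM in qNSC1. Naive vSVZ astrocytes of pJ and pM, a label absent from the WT types compared, had 31320 and 35550 CPM of them, within the qNSC1 range. Their stem cell markers summed to 1099 and 787 CPM, against 646 to 1029 CPM in qNSC1. In the knockout, Ifngr1 stood at 0.749 and 0.0981 CPM in KO vSVZ sums (2 d and naive), against 9.03 to 34.2 CPM in TiCY vSVZ sums, and Ifnar1 at 11.9 to 21.4 CPM against 48.9 to 84.7 CPM. Striatal sums showed the same order, with Ifngr1 at 2.14 and 0.457 CPM in KO against 18.2 to 34.2 CPM in TiCY. Ifnar2 ran the other way in the vSVZ, at 75.4 and 65.5 CPM in KO against 38.3 to 54.6 CPM in TiCY; in the striatum it was at 97.2 and 15.1 CPM in KO against 20.8 to 49.4 CPM in TiCY. Ifngr2 overlapped in the vSVZ, at 16.4 and 17.4 CPM in KO against 16.04 to 31.4 CPM in TiCY, and was at 13.9 and 10.3 CPM in KO against 18.3 to 34.7 CPM in TiCY in the striatum. Which exons were deleted is not in the labels, so these levels check the labels only in so far as the deletion removes transcript.

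Counts were summed over the cells of 1 type in 1 letter, and levels below are CPM after trimmed-mean (TMM) scaling unless stated otherwise. Among WT vSVZ types, the summed level of the 18 synthesis enzymes was 2383 ± 797 TMM CPM in qNSC1 (SD, n = 5 letters), 1528 ± 705 in qNSC2 (n = 4), 1192 ± 193 in aNSC (n = 3), 1014 ± 259 in TAP (n = 3) and 730.3 ± 224 in neuroblasts (n = 4). Oligodendrocytes reached 2090 ± 575 TMM CPM (n = 3). Neighbouring stages overlapped. Neuroblast letters held 525, 565, 836 and 995 TMM CPM, against 2811, 2848, 1833, 1269 and 3155 TMM CPM in qNSC1 of pA to pE, so that neuroblasts and qNSC1 did not overlap. The mean of 15 members was highest in qNSC1, of 10 in oligodendrocytes, of 2 each in aNSC, TAP and neuroblasts, and of 1 in qNSC2.

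**Figure D1:**
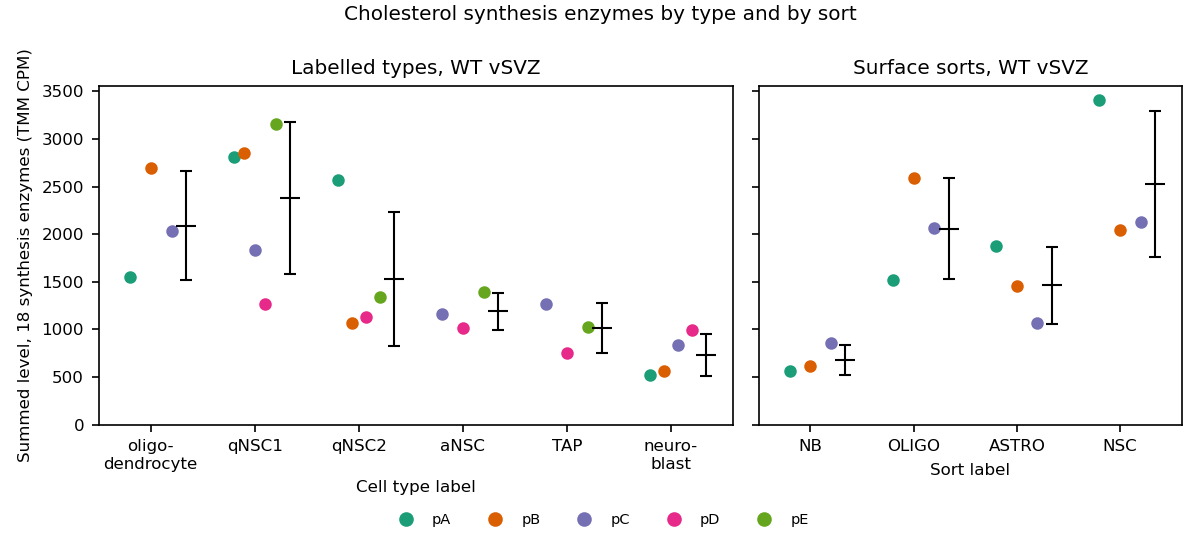
Summed TMM CPM of the 18 synthesis enzymes in WT vSVZ cells, by cell type label (left) and by surface sort (right); each point is the sum of 1 letter, and the bar beside it is the mean ± SD. All 4 neuroblast letters lie below all 5 qNSC1 letters, oligodendrocytes lie near qNSC1, and the NB sort lies below the other 3 sorts.

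Per kilobase of exon, Apoe, which encodes the main brain apolipoprotein, had the highest mean of the members in every WT vSVZ type. Its level was 6729 ± 5708 TMM CPM per kb in qNSC1 (n = 5), 4425 ± 3942 in qNSC2 (n = 4), 1259 ± 1072 in aNSC (n = 3), 231.8 ± 318 in TAP (n = 3) and 234.6 ± 449 in neuroblasts (n = 4). In oligodendrocytes it was 326 ± 108 TMM CPM per kb (n = 3). The next members differed by type. In qNSC1 they were Msmo1, a methylsterol oxidase, at 95.3 ± 54.2 and Hmgcs1 at 86.4 ± 53.8 TMM CPM per kb; in neuroblasts they were Pmvk, the phosphomevalonate kinase, at 55.2 ± 68.8 and Npc2, a lysosomal cholesterol carrier, at 46.1 ± 27.5; in oligodendrocytes they were Hmgcs1 at 105 ± 64.4 and Insig1 at 94.1 ± 15.7 TMM CPM per kb. The neuroblast means of Apoe and Pmvk and the TAP mean of Apoe rest on letter pD. In pA to pC neuroblasts Apoe had 10.9 to 34.3 TMM CPM, and in TAP of pC and pE 89.9 and 116 TMM CPM. With 2138 exon bases, Apoe in neuroblasts of pA to pC lay below Npc2 per kb. Npc2 had at least 28.1 TMM CPM per kb in each neuroblast letter. With SDs of this size, the order of neighbouring members was not resolved.

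Neuroblasts had less sterol gene RNA than qNSC1 at several points of the pathway. Of 32 members, 10 fell and none rose in neuroblasts against qNSC1 (edgeR quasi-likelihood test, Benjamini-Hochberg adjusted p under 0.05; n = 4 and 5 letters). Among all 14915 genes tested, 7.7% fell and 4.68% rose. The median log2 fold change was -2.02 over the members and -0.17 over all genes, and 28 members lay below 0. The 10 were spread over the roles, with 1 of 7 mevalonate steps, 1 of 3 squalene and lanosterol steps, 2 of 8 steps from lanosterol to cholesterol, 2 of 5 sensing genes, 2 of 4 transport genes and 2 of 5 export genes.

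Among the enzymes, Msmo1 had 9.97, 9.91, 22.7 and 27.0 TMM CPM in neuroblasts of pA to pD, against 751, 693, 272, 215 and 997 TMM CPM in qNSC1 of pA to pE. No neuroblast letter came near a qNSC1 letter, and Msmo1 fell by 5.10 ± 0.71 on the log2 scale (SE; adjusted p = 9.31e-05). Idi1, the isomerase that balances the isoprenoid building blocks, had 21.6, 8.96, 31.5 and 13.5 TMM CPM in neuroblasts, against 126, 128, 169, 10.8 and 124 TMM CPM in qNSC1. The qNSC1 value of pD lay inside the neuroblast range, so the groups overlapped there; Idi1 fell by 2.55 ± 0.72 (adjusted p = 0.0226) and was lower in 3 of the 4 letters that held both types. Sqle, the squalene epoxidase, fell by 2.96 on the log2 scale (adjusted p = 0.0425), and Tm7sf2, a sterol reductase, fell by 2.69 (adjusted p = 0.0429). Both were lower in 4 of 4 shared letters.

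Among the sensing genes, Srebf1 encodes an SREBP factor best known for fatty acid synthesis. Srebf1 had 0.787, 5.13, 8.47 and 99.5 TMM CPM in neuroblasts, against 242, 169, 366, 265 and 250 TMM CPM in qNSC1. The groups did not overlap, although the neuroblast sum of pD stood apart from the other 3, and Srebf1 fell by 3.24 ± 0.89 (adjusted p = 0.0190). Insig1 fell by 2.11 on the log2 scale with an adjusted p of 0.0479. Srebf2, the factor most tied to cholesterol synthesis, averaged 107 TMM CPM in neuroblasts and 241 in qNSC1 and did not pass the threshold.

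Among the transport and export genes, Soat1 encodes the enzyme that esterifies cholesterol for storage. Soat1 had 13.2, 20.6, 12.9 and 0 TMM CPM in neuroblasts, against 592, 607, 239, 107 and 546 TMM CPM in qNSC1. All neuroblast letters lay far below, and Soat1 fell by 5.11 ± 0.98 (adjusted p = 0.00149). Npc1, which moves cholesterol out of lysosomes, had 57.7, 60.0, 31.5 and 13.5 TMM CPM in neuroblasts, against 363, 282, 169, 102 and 220.2 TMM CPM in qNSC1, and fell by 2.47 ± 0.60 (adjusted p = 0.00922) with no overlap. Apoe had 21.4, 10.9, 34.3 and 1940 TMM CPM in neuroblasts, against 7637, 6588, 14740, 35420 and 7543 TMM CPM in qNSC1, and fell by 4.85 ± 1.38 (adjusted p = 0.0241). Letter pD was the highest in both types, and 43.2% of the Apoe counts of its 7 neuroblasts came from 1 cell. Lcat, which esterifies cholesterol on lipoproteins, had at most 2.46 TMM CPM in a neuroblast letter, against 45.7 to 161 TMM CPM in qNSC1; its adjusted p was 0.0250.

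The members that did not pass gave the following means in neuroblasts and qNSC1, in TMM CPM. Early enzymes had 87.7 and 397 (Hmgcs1), 11.8 and 27.6 (Mvk, the mevalonate kinase), 8.90 and 41.5 (Mvd), 40.3 and 43.9 (Acat2) and 83.9 and 106 (Fdps). Fdft1 had 104 and 143, and Lss, which closes the ring of lanosterol, 32.2 and 67.0. Late enzymes had 49.8 and 120 (Cyp51), 8.90 and 36.7 (Nsdhl), 10.6 and 54.5 (Hsd17b7), 47.7 and 249.8 (Sc5d) and 16.3 and 87.7 (Dhcr7). Insig2 had 29.2 and 63.4, Scap 39.7 and 82.6, Stard4 24.98 and 45.4, Abca1 98.5 and 396, Abcg1 13.1 and 3.78 and Pmvk 94.5 and 72.5. Of these, Abcg1 and Pmvk had the higher mean in neuroblasts; that of Pmvk rests on pD, at 270.2 TMM CPM in neuroblasts, where pA to pC held 17.4 to 49.1, against 21.7 to 189 TMM CPM in qNSC1.

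Ebp, a sterol isomerase, had 32.5, 16.9, 29.2 and 187 TMM CPM in neuroblasts of pA to pD, against 8.65, 0, 26.1, 8.73 and 1.53 TMM CPM in qNSC1 of pA to pE. The groups overlapped, the neuroblast mean of 66.3 ± 80.5 rests on pD, and the adjusted p of 0.140 missed the threshold. Nr1h2, the oxysterol receptor LXR beta, averaged 34.7 TMM CPM in neuroblasts and 25.7 in qNSC1, and Npc2 averaged 251 in neuroblasts and 288 in qNSC1; neither passed. With the letter as a block, 16 members were called in place of 10, and within pC and pD alone none was. Leaving out pA, pB or pC gave 2, 3 or 2 calls. The share of all genes called under these alternatives was not recorded. Of the other 29 sterol genes tested, 2 rose and 3 fell, and of 11 fatty acid genes driven by SREBP, 5 fell. Clu, apolipoprotein J, averaged 4.26 TMM CPM in neuroblasts and 5659 ± 1396 in qNSC1 (log2 fold change -10.74, adjusted p = 0.000656). Gramd1a, a sterol carrier between membranes, averaged 222 ± 49.1 TMM CPM in neuroblasts and 52.1 ± 15.6 in qNSC1 and rose by 2.09 on the log2 scale (adjusted p = 0.00358). Elovl5, a fatty acid elongase, averaged 31.4 ± 24.9 TMM CPM in neuroblasts and 664 ± 376 in qNSC1 and fell by 4.38 (adjusted p = 0.00737).

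**Figure D2:**
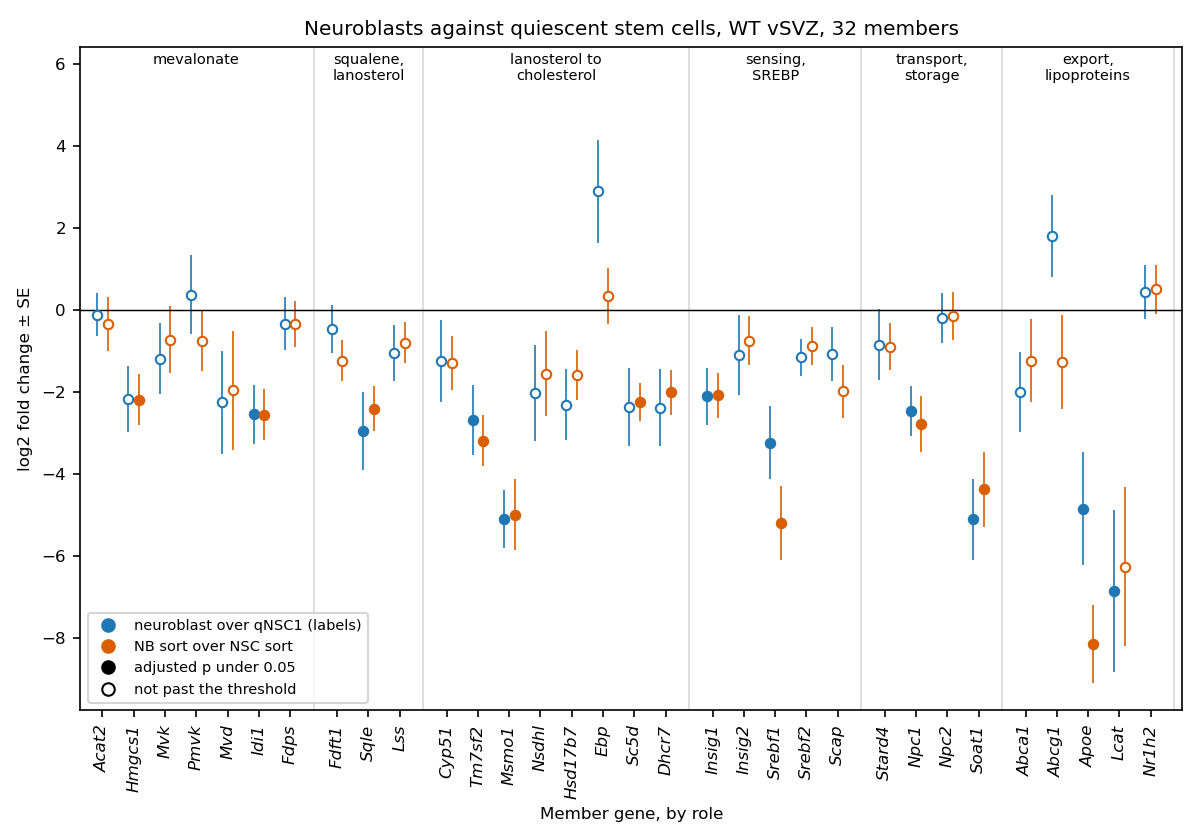
Log2 fold change ± SE of the 32 members, in pathway order, for neuroblasts over qNSC1 by label (blue) and for the NB sort over the NSC sort (orange); filled points passed the adjusted p threshold. Msmo1, Soat1, Srebf1 and Apoe are among the largest decreases in both, and Ebp lies above 0.

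Cell type labels may rest on these same transcriptomes, which makes the tests between labelled types a description; the surface sorts of letters pA, pB and pC were set by antibodies instead. The NB sort was set against the NSC sort, and it shares cells with the labelled comparison. In the NB sort 12 of 32 members fell and none rose (edgeR, n = 3 letters each), against 8.16% of 14348 genes that fell and 3.62% that rose. The member median was -1.57, against -0.02 over all genes, and 30 members lay below 0. Steps from lanosterol to cholesterol gave 4 of the 12 (Msmo1, Tm7sf2, Sc5d and Dhcr7).

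Apoe had 23.4, 8.35 and 47.0 TMM CPM in the NB sort, against 6503, 3086 and 12680 TMM CPM in the NSC sort, and fell by 8.15 ± 0.94 (adjusted p = 0.000308). Msmo1 had 11.02, 10.4 and 24.96 TMM CPM in the NB sort, against 793, 426 and 253 TMM CPM in the NSC sort, and fell by 4.99 ± 0.86 (adjusted p = 0.00289). Srebf1 had 0.882, 4.61 and 14.6 TMM CPM in the NB sort, against 269.8, 103 and 349 TMM CPM in the NSC sort, and fell by 5.195 ± 0.91 (adjusted p = 0.00312). In none of these did the sorts overlap. Tm7sf2 had 7.28, 4.25 and 3.82 TMM CPM in the NB sort, against 34.6, 61.5 and 45.2 TMM CPM in the NSC sort (log2 fold change -3.20 ± 0.62, adjusted p = 0.00588). Sc5d had 77.4, 50.5 and 61.8 TMM CPM in the NB sort, against 368, 357 and 177 TMM CPM in the NSC sort (-2.25 ± 0.46, adjusted p = 0.00744). These 2 enzymes also kept apart in every letter. Soat1 had 14.8, 20.7 and 11.7 TMM CPM in the NB sort, against 514, 262 and 206 TMM CPM in the NSC sort (-4.38 ± 0.91, adjusted p = 0.00831). The other 6, Sqle, Idi1, Npc1, Insig1, Dhcr7 and Hmgcs1, had adjusted p between 0.0133 and 0.0375.

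The NSC sort held oligodendrocytes: 1 of 9 cells in pA, 7 of 15 in pB and 0 of 17 in pC were labelled so, and oligodendrocyte markers summed to 10360, 44510 and 189 CPM there. Without those cells 14 members were called, among them all 12. Leaving out pA or pB gave 4 or 1 calls. Apoe was called under all 10 alternatives. Of the other sterol genes 1 rose and 8 fell, and 4 fatty acid genes fell. Clu was at 0.334 TMM CPM in the NB sort and 4398 in the NSC sort (log2 fold change -13.69, adjusted p = 0.000207). Elovl5 averaged 43.4 ± 17.3 TMM CPM in the NB sort and 636 ± 180 in the NSC sort (-3.88, adjusted p = 0.00133).

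Between neighbouring stages, none of the 32 members was called by edgeR. For qNSC2 against qNSC1 (n = 4 and 5 letters), 26 members lay below 0, the member median was -0.64 against -0.11 over all genes, 0.0335% of genes rose and 0.0469% fell, and 4 members had an unadjusted p under 0.05. When median-of-ratios scaling set the all-gene median at 0, a shift of 0.11, the member median was -0.50. For aNSC against qNSC2 (n = 3 and 4), 21 lay below 0, the medians were -0.46 and -0.10, 0.0603% of genes rose and 0.134% fell, and 1 member had an unadjusted p under 0.05. DESeq2 called 1 member there, Abcg1, a sterol exporter, with an adjusted p of 0.0341. For TAP against aNSC (n = 3 each), 24 lay below 0, the medians were -0.46 and -0.02, 0% of genes were called and 4 members had an unadjusted p under 0.05. For neuroblasts against TAP (n = 4 and 3), 22 lay below 0, the medians were -0.22 and 0.07, 0.0134% of genes rose and 0.0805% fell, and 3 members had an unadjusted p under 0.05. Under median-of-ratios scaling 1 member changed sign in each of qNSC2 against qNSC1, aNSC against qNSC2 and neuroblasts against TAP. DESeq2 called no member in the comparisons other than aNSC against qNSC2. The other sterol and fatty acid lists had no call in any of the 4 steps.

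Levels along the stages showed where single members lay. Msmo1 averaged 586, 214, 109.9, 38.5 and 17.4 TMM CPM in qNSC1, qNSC2, aNSC, TAP and neuroblasts. Soat1 averaged 418, 229.9, 76.2, 12.9 and 11.7 TMM CPM in the same order. Lcat was near its low level already in qNSC2 of pA, pB and pE (1.084, 0 and 4.48 TMM CPM), while qNSC2 of pD held 65.2 TMM CPM, against 45.7 to 161 TMM CPM in qNSC1. These qNSC2 sums of pA, pB and pE hold 3, 3 and 9 cells, and that of pD holds 34. Idi1 had 115 TMM CPM in qNSC2, 122 in aNSC and 84.1 in TAP, close to the 112 TMM CPM of qNSC1. Fdps, the synthase for farnesyl diphosphate, which also feeds protein prenylation, averaged highest in TAP at 168 TMM CPM.

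The summed RNA of the synthesis enzymes in oligodendrocytes was close to the qNSC1 level, and the 2 members called were genes of sterol export and storage. Single enzymes that were not called differed in mean both ways. Ebp had 43.6 and 3.89, Mvd 3.77 and 22.3 and Msmo1 34.6 and 95.3 TMM CPM per kb in oligodendrocytes and qNSC1. Against qNSC1, 1 member rose and 1 fell (edgeR, n = 3 and 5 letters), against 4.39% of genes that rose and 6.58% that fell. Members were thus called no more often than genes at large. The member median was -0.28 and the all-gene median -0.24. The role medians were 0.27 for the mevalonate steps, -0.30 for the steps from lanosterol to cholesterol and -2.86 for export and lipoproteins. Abcg1 had 233, 303 and 1124 TMM CPM in oligodendrocytes of pA to pC, against 10.6, 3.47, 0.427, 2.44 and 1.93 TMM CPM in qNSC1, and rose by 7.16 ± 1.24 on the log2 scale (adjusted p = 0.000442). Every oligodendrocyte of these letters had Abcg1 counts (100%). Soat1 had 2.42, 39.1 and 22.7 TMM CPM in oligodendrocytes, against 107 to 607 TMM CPM in qNSC1, and fell by 4.28 ± 1.07 (adjusted p = 0.00969). Neither gene overlapped between the types. Leaving out pA or pC gave 1 call and leaving out pD gave 5, Abcg1 among them each time. Within pA, pB and pE alone 4 members were called, and Abcg1 was not one of them, with adjusted p = 0.0539.

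With the letter as a block, Npc1, Abca1 and Apoe passed as well, giving 5 calls in place of 2. Npc1 averaged 706 ± 280 TMM CPM in oligodendrocytes and 227 ± 101 in qNSC1 (adjusted p = 0.0821, or 0.0357 with the block). Apoe averaged 698 ± 232 TMM CPM in oligodendrocytes and 14390 ± 12200 in qNSC1 (0.0713, or 0.00583 with the block). Abca1, a sterol exporter for lipid-poor particles, averaged 54.4 TMM CPM in oligodendrocytes and 396 in qNSC1 (0.119, or 0.00635 with the block). Of the other sterol genes 4 rose and 3 fell, and 1 fatty acid gene fell. Apod, apolipoprotein D, averaged 2607 ± 1075 TMM CPM in oligodendrocytes and 1.85 ± 1.89 in qNSC1 (log2 fold change 10.41, adjusted p = 6.55e-06). Lrp1, a receptor that takes up Apoe particles, averaged 0.318 TMM CPM in oligodendrocytes and 489 in qNSC1 (-10.53, adjusted p = 2.74e-05). Fads2, a fatty acid desaturase, averaged 2.11 TMM CPM in oligodendrocytes and 879 in qNSC1 (-8.79, adjusted p = 9.21e-05).

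**Figure D3:**
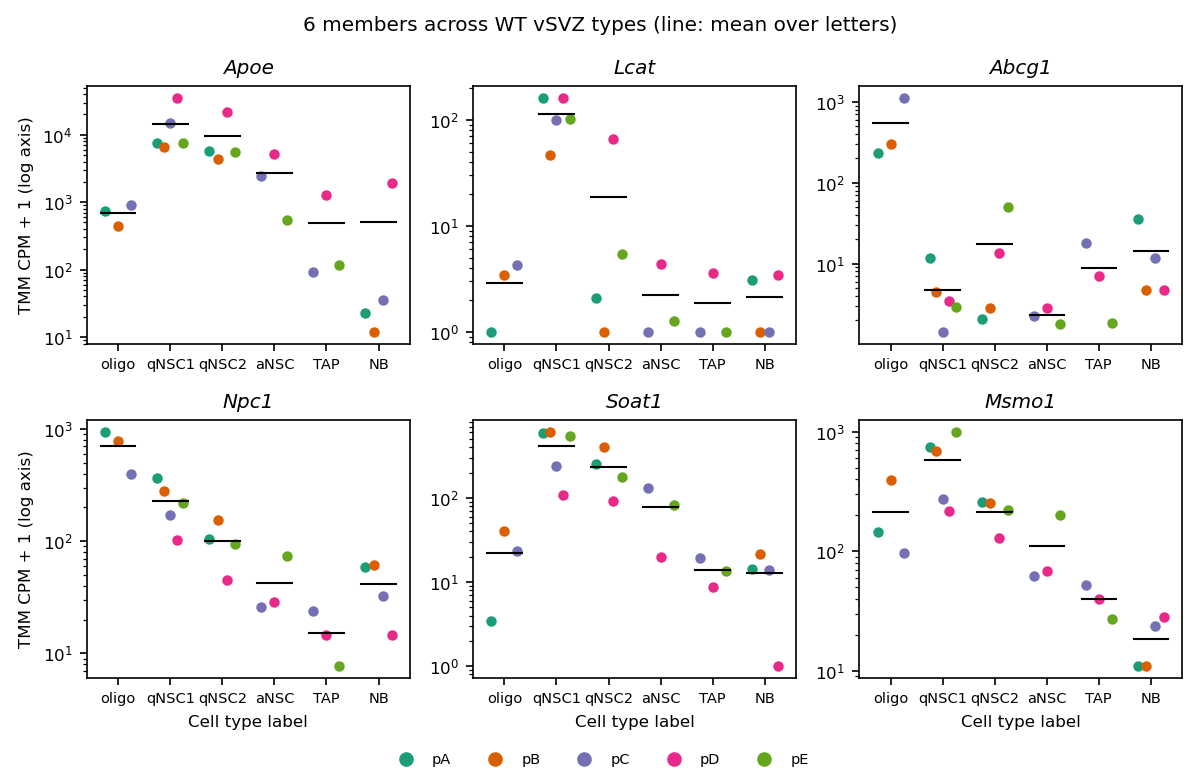
TMM CPM + 1 on a log axis for 6 members in WT vSVZ types; each point is 1 letter, the line is the mean over letters, oligo stands for oligodendrocytes and NB for neuroblasts. Abcg1 is high in oligodendrocytes, Lcat in qNSC1, and the means of Msmo1 and Soat1 step down from qNSC1 to neuroblasts.

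The OLIGO sort gave 2 members that fell and none that rose against the NSC sort (edgeR, n = 3 each), against 5.86% and 0.237% of genes. Apoe had 736, 355 and 918 TMM CPM in the OLIGO sort, against 6503, 3086 and 12680 TMM CPM in the NSC sort (-3.47 ± 0.76, adjusted p = 0.0151). Soat1 had 2.76, 44.9 and 23.1 TMM CPM in the OLIGO sort, against 514, 262 and 206 TMM CPM in the NSC sort (-3.79 ± 0.89, adjusted p = 0.0222). Without the labelled oligodendrocytes of the NSC sort, 1 member was called higher and 2 lower; leaving out any 1 letter left no call. Of the other sterol genes 5 fell. In the ASTRO sort against the NSC sort edgeR called no member, 0.0906% of genes rose and 0% fell, 2 members had an unadjusted p under 0.05 and DESeq2 called none. The member median was -0.78 and 27 members lay below 0. The ASTRO sort also held neuroblast markers, 559.9 to 2878 CPM summed over 8 genes, against 7.97 to 42.5 CPM in the NSC sort; their part in these values was not tested.

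In the second set of libraries, naive cells of pJ (KO) and pM (TiCY), labels separate vSVZ astrocytes from qNSC2. Letter and genotype are the same split in these cells, so the spread behind each p-value mixes both. The summed level of the 18 synthesis enzymes was 947 ± 53.6 TMM CPM in qNSC2 and 1997 ± 469 in vSVZ astrocytes (n = 2 letters each). For qNSC2 against vSVZ astrocytes 28 members lay below 0 and the member median was -0.61, against -0.02 over all genes; edgeR called no member, 0.0125% of genes rose and 0% fell, and 1 member, Lcat, had an unadjusted p under 0.05. Lcat had 0 and 2.28 TMM CPM in qNSC2 of pJ and pM, against 128 and 84.6 TMM CPM in vSVZ astrocytes. These values did not overlap; the edgeR adjusted p was 0.588 and the DESeq2 adjusted p 0.000420. Nsdhl had 61.4 and 105.6 TMM CPM in qNSC2, against 469 and 589 TMM CPM in vSVZ astrocytes, and was not called.

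Between regions, edgeR called no member for striatal against vSVZ astrocytes (n = 2 letters each), 0% of 16009 genes were called, no member had an unadjusted p under 0.05, and DESeq2 called none. The summed synthesis level was 1953 ± 539 TMM CPM in striatal and 1997 ± 469 in vSVZ astrocytes. Lcat had 338 and 217 TMM CPM in striatal astrocytes of pJ and pM, against 128 and 84.6 TMM CPM in vSVZ astrocytes, higher in both letters. Nsdhl had 347 and 458 TMM CPM in striatal astrocytes, against 469 and 589 TMM CPM in vSVZ astrocytes. With 2 letters a type, differences of this size were not resolved by the test.

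Naive neuroblasts of pJ and pM against qNSC2 gave 3 members that fell and none that rose (edgeR, n = 2 each), against 8.6% and 1.39% of genes. Members had a median of -1.30 and all genes one of -0.86. Apoe had 11.1 and 58.6 TMM CPM in neuroblasts, against 18660 and 9415 TMM CPM in qNSC2, and fell by 8.65 ± 0.78 (adjusted p = 3.9e-05). Srebf1 had 0.503 and 22.6 TMM CPM in neuroblasts, against 583 and 202 TMM CPM in qNSC2, and fell by 5.07 ± 1.18 (adjusted p = 0.0164). Hsd17b7, a ketosteroid reductase of the late pathway, had no count in the 8 and 15 neuroblasts, against 58.1 and 38.1 TMM CPM in qNSC2 (adjusted p = 0.00269). A count of 0 allows up to 1.93 CPM in pJ and 1.32 CPM in pM, at 3 counts. None of the 3 overlapped. Of the other sterol genes 6 fell and of the fatty acid genes 4. Clu averaged 5.07 TMM CPM in neuroblasts and 3115 in qNSC2 (-9.26, adjusted p = 6.57e-05).

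Some groups came from a single letter, so they have no replicate check; there, CPM with exact 95% Poisson intervals is given, which cover counting error only, and a difference counts when it reaches 2-fold after adding 5 CPM, with at least 30 counts. Cortical against striatal astrocytes of pL (32 and 33 cells) had 0 members higher and 3 lower, against 11.3% and 12.4% of genes. Stard4, a cytosolic sterol carrier, had 6.39 CPM in cortical and 43.1 CPM in striatal astrocytes. Ebp had 0 and 15.2 CPM and Abcg1 0 and 5.58 CPM in cortical and striatal astrocytes. Apoe, at 9585 and 11570 CPM, Nsdhl, at 481 and 593 CPM, and Lcat, at 239.8 and 248.6 CPM in cortical and striatal astrocytes, stayed under the fold. WT striatal astrocytes of pE (12 cells) differed from qNSC1 of pE (20 cells) in 1 member that was higher and 1 that was lower, against 12.5% and 8.15% of genes. Lcat had 250.1 CPM (240.4 to 260.1) in striatal astrocytes and 96.4 CPM (91.9 to 101) in qNSC1, and Fdps had 30.3 CPM in striatal astrocytes and 79.0 CPM in qNSC1. Msmo1, at 986 CPM in striatal astrocytes and 955 CPM in qNSC1, stayed under the fold.

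Olfactory bulb cells of pF (55 cells) against vSVZ neuroblasts of pC (27 cells) had 5 members higher and 8 lower, against 22.3% and 15.3% of genes. Insig1 had 11.6 CPM (9.49 to 14.0) in olfactory bulb cells and 114 CPM (104 to 124) in neuroblasts. Hmgcs1 had 49.9 and 138 CPM, Cyp51, the lanosterol demethylase, 28.9 and 83.8 CPM, and Acat2, the thiolase that opens the pathway, 26.7 and 86.7 CPM in olfactory bulb cells and neuroblasts. The other 4 lower were Soat1, Abca1, Mvd and Fdft1. Higher were Apoe, at 1122 CPM (1100 to 1144) in olfactory bulb cells and 36.5 CPM (31.1 to 42.6) in neuroblasts, Scap, at 95.5 and 15.8 CPM, Abcg1, at 69.3 and 11.5 CPM, and Tm7sf2 and Nr1h2. Region, letter and library cannot be told apart here.

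After ischemia, cells sorted on GLAST, an astrocyte and stem cell surface transporter, were compared by region; TiCY cells of the ischemia arms carry hardly any finer type in the labels. Each region had 5 sums, and time and genotype were additive terms. In TiCY each time is a different letter, so time and letter cannot be told apart there. KO cells of 2 d carry TiCY in their label and naive ones do not, so time and that label cannot be told apart. With 1 residual degree of freedom, p-values of these fits rest on the trend over genes and do not measure a spread between animals. In the vSVZ, 6 of 32 members fell at 2 d against naive and none rose (edgeR, 2 sums each), against 5.99% of 24153 genes that fell and 4.93% that rose. The member median was -0.52, and the all-gene median 0.08. The 6 were 3 of 8 steps from lanosterol to cholesterol (Nsdhl, Msmo1 and Sc5d), 1 mevalonate step (Idi1), Soat1 and Lcat.

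Nsdhl had 41.9 and 24.7 TMM CPM at 2 d (KO and TiCY), against 253.0 and 345 TMM CPM in naive vSVZ sums (KO and TiCY), and fell by 3.20 ± 0.43 (adjusted p = 5.67e-11). Soat1 had 42.4 and 26.8 TMM CPM at 2 d, against 158 and 189 TMM CPM naive, and fell by 2.36 ± 0.43 (adjusted p = 2.51e-06). Msmo1 had 35.6 and 44.5 TMM CPM at 2 d, against 190.5 and 122 TMM CPM naive, and fell by 1.94 ± 0.42 (adjusted p = 0.000190). For all 3 both 2 d sums lay below both naive sums. The naive level of Nsdhl also differed between library sets, with values given under other observations. Idi1 had 8.89 and 9.53 TMM CPM at 2 d, against 45.3 and 24.1 TMM CPM naive (-1.84 ± 0.63, adjusted p = 0.0349). Sc5d had 19.2 and 29.3 TMM CPM at 2 d, against 70.2 and 53.2 TMM CPM naive (-1.37 ± 0.48, adjusted p = 0.0428). Neither overlapped, but both lost the call with cells weighted equally, without the 21 d sum of pH or with no filter on low counts. Lcat had 49.3 and 3.78 TMM CPM at 2 d, against 64.9 and 46.1 TMM CPM naive (-1.98 ± 0.53, adjusted p = 0.00391); the KO sum at 2 d lay within the naive range, and the call was lost with cells weighted equally or without pH. Without pH 3 of the 6 calls were left, as with equal weights.

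The make-up of the sorted cells moved too. Astrocyte markers (9 of 9 with counts) summed to 10620 and 6395 CPM in the 2 d vSVZ sums, against 23230 and 27480 CPM in the naive ones. Neuroblast markers (8 of 8 with counts) summed to 2538 and 4343 CPM at 2 d, against 612 and 637 CPM naive. In sums of sorted cells, fewer cells of a type and less RNA per cell cannot be told apart, and the part of these shifts in the member values was not tested. Of the other sterol genes 2 rose and 3 fell, and 4 fatty acid genes fell. Vldlr, a lipoprotein receptor, averaged 37.7 ± 26.1 TMM CPM at 2 d and 2.99 ± 1.97 naive (3.62, adjusted p = 0.000113). Abca5, a lipid transporter, averaged 10.4 ± 5.38 TMM CPM at 2 d and 48.7 ± 1.62 naive (-2.33, adjusted p = 0.00135). Acss2, which makes acetyl-CoA from acetate, averaged 20.8 ± 18.04 TMM CPM at 2 d and 66.2 ± 24.4 naive (-1.95, adjusted p = 0.00197).

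In the striatum 1 member fell at 2 d and none rose (edgeR, 2 sums each), against 0.295% and 2.0% of 22409 genes. Nsdhl had 81.1 and 47.1 TMM CPM at 2 d (KO and TiCY), against 309.0 and 416 TMM CPM in naive sums, and fell by 2.54 ± 0.73 (adjusted p = 0.0279). The 2 d sums lay below both naive sums; with cells weighted equally the adjusted p was 0.235. The member median was -0.51, against 0.36 over all genes, and 26 members lay below 0, with 2 of the 32 changing sign under median-of-ratios scaling. Astrocyte markers summed to 22590 and 8209 CPM at 2 d, against 31790 and 35350 CPM naive, and neuroblast markers to 608 and 392 CPM, against 76.5 and 80.0 CPM naive; their part was not tested. Among labelled naive TiCY astrocytes the share of cells with Nsdhl counts was 77.2% in the vSVZ and 86.3% in the striatum. In all TiCY GLAST cells, of whatever type, it was 18.1% in the vSVZ and 42.2% in the striatum at 2 d, and 48.1% and 82.3% at 21 d. The naive TiCY vSVZ astrocytes numbered 114 and the whole naive TiCY vSVZ sort 188 cells. The vSVZ shares are thus of unlike sets of cells. That the regions differ in their response was not tested.

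At 21 d, which is 1 sum a region (pH), edgeR called no member against naive. In the vSVZ 0.219% of genes rose and 0.257% fell, 5 members had an unadjusted p under 0.05 and 18 lay above 0. In the striatum 0.25% of genes rose and 0.0491% fell, 0 members had an unadjusted p under 0.05 and 20 lay above 0. DESeq2 called no member in either region. Nsdhl stood at 96.7 TMM CPM at 21 d in the vSVZ, against a naive mean of 299 ± 64.8, with a log2 fold change of -1.56 and an adjusted p of 0.211. It was at 256 TMM CPM in the striatum, against 362 ± 75.4 naive. Soat1 was at 125 and 198 TMM CPM and Msmo1 at 104 and 303 TMM CPM at 21 d in the vSVZ and striatum. In the striatum both lay within the range of the naive sums, and in the vSVZ both lay below it, as the plot over time shows. These naive ranges and means pool KO and TiCY, while the 21 d sums are TiCY only. Striatal Msmo1 at 21 d lay above the naive TiCY sum and below the naive KO sum.

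**Figure D4:**
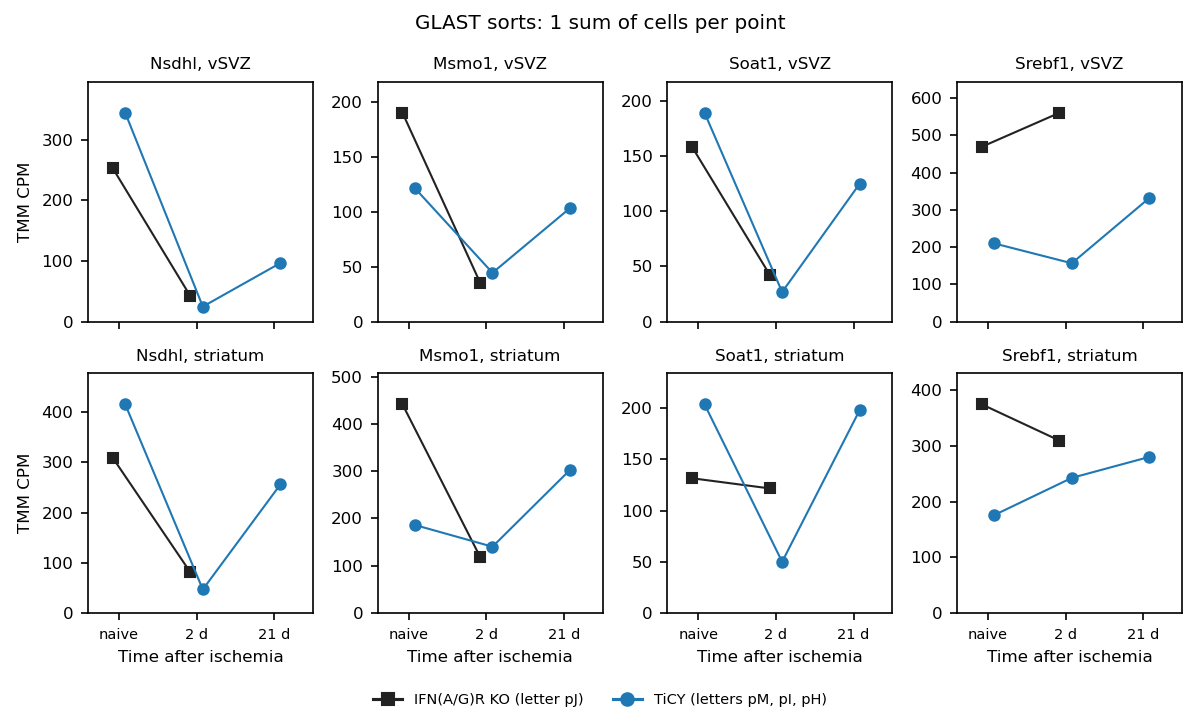
TMM CPM of Nsdhl, Msmo1, Soat1 and Srebf1 in GLAST-sorted cells of the vSVZ (top) and striatum (bottom) by time after ischemia; each point is 1 sum of cells, squares are KO (pJ), circles TiCY. Nsdhl is low at 2 d in both genotypes and both regions, and Srebf1 is higher in KO than in TiCY at the same time in each panel.

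Each genotype taken alone gave the following, with no test. In TiCY vSVZ cells at 2 d (176 cells) against naive (188 cells) 2 members were higher and 5 lower, against 13.3% and 11.4% of genes. Nsdhl had 25.7 and 338.8 CPM, Soat1 27.9 and 186 CPM, Msmo1 46.3 and 119.7 CPM, Apoe 2808 and 9408 CPM and Lcat 3.93 and 45.3 CPM at 2 d and naive. Abcg1, at 47.7 and 2.00 CPM, and Acat2, at 81.7 and 29.2 CPM, were the higher ones. In KO vSVZ cells (228 and 134 cells) 1 was higher and 6 lower, against 10.6% and 10.9% of genes. Nsdhl had 42.1 and 243 CPM, Msmo1 35.8 and 183 CPM, Idi1 8.93 and 43.5 CPM and Insig1 12.4 and 37.1 CPM at 2 d and naive. Fdps was higher there, at 218 and 80.0 CPM. In TiCY striatal cells (122 and 131) 0 were higher and 5 lower, against 17.5% and 12.2% of genes, and in KO striatal cells (114 and 35) 1 and 9, against 23.3% and 9.7%. Nsdhl and Idi1 were past the fold in all 4 of these except Idi1 in TiCY vSVZ cells. Soat1 had 132 CPM at 2 d and 126 CPM naive in KO striatal cells, against 49.5 CPM at 2 d and 195 CPM naive in TiCY striatal cells.

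Labelled astrocytes of the knockout (pJ) can be compared within the type. The 2 d cells are labelled TiCY-IFN(A/G)R KO and the naive ones IFN(A/G)R KO only, so time and this label cannot be told apart. KO vSVZ astrocytes at 2 d (36 cells) against naive (79 cells) had 2 members higher and 7 lower, against 15.7% and 18.2% of genes. Nsdhl had 29.5 CPM (25.2 to 34.4) at 2 d and 393 CPM (382 to 405) naive. Idi1 had 2.64 and 54.7 CPM, Stard4 12.7 and 88.1 CPM, Insig2 34.8 and 144 CPM, Msmo1 70.1 and 267 CPM, Mvd 35.7 and 93.8 CPM and Hmgcs1 44.8 and 102 CPM at 2 d and naive. The higher ones were Srebf1, at 1396 and 515.5 CPM, and Lcat, at 234 and 108 CPM at 2 d and naive. Soat1, at 112 and 217 CPM, stayed under the fold. KO striatal astrocytes (82 and 35 cells) had 2 higher and 10 lower, against 20.0% and 11.9% of genes. Stard4 had 5.73 and 121 CPM, Mvd, the mevalonate decarboxylase, 14.3 and 87.7 CPM, Idi1 2.66 and 26.7 CPM, Msmo1 118 and 422 CPM and Nsdhl 93.9 and 296 CPM at 2 d and naive. The others lower were Mvk, Fdft1, Tm7sf2, Lss and Abcg1. Of the 10, 8 were synthesis enzymes, which make up 18 of the 32 members. Abca1 was higher at 336 and 149 CPM, and Ebp at 8.12 and 0.457 CPM.

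**Figure D5:**
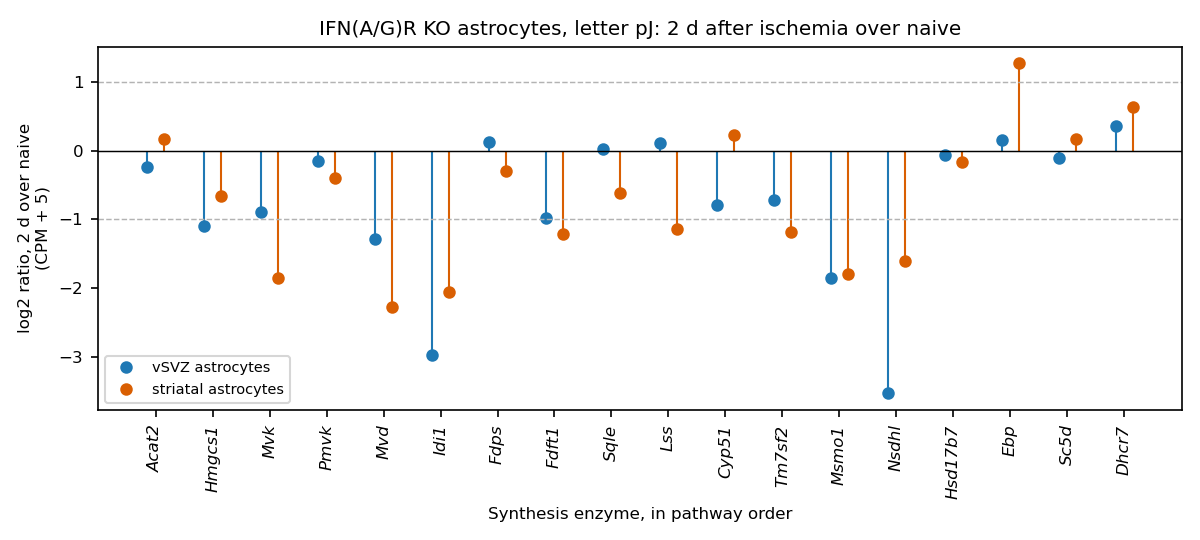
Log2 ratio of CPM + 5, 2 d over naive, for the 18 synthesis enzymes in labelled IFN(A/G)R KO astrocytes of letter pJ (vSVZ in blue, striatum in orange); dashed lines mark 2-fold, and there is 1 library set per group and no test. Idi1, Mvd, Msmo1 and Nsdhl lie below the lower line in both regions. The 2 d cells are labelled TiCY-IFN(A/G)R KO and the naive ones IFN(A/G)R KO only.

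KO qNSC2 at 2 d (67 cells) against naive (31 cells) had 7 members higher and 3 lower, against 18.5% and 18.8% of genes. Fdps had 279 and 24.8 CPM, Cyp51 104.3 and 17.1 CPM and Stard4 65.3 and 18.3 CPM at 2 d and naive. Lcat had 40.2 CPM at 2 d and no count naive (up to 0.749 CPM), with 25.4% of the 67 cells carrying counts and 35.1% of them in 1 cell. Mvk, Pmvk and Scap were higher too, and Sc5d, at 14.2 and 67.3 CPM, Abcg1 and Hsd17b7 lower. Nsdhl, which was lower in astrocytes, had 69.6 and 59.1 CPM. The difference between the types in this response was not tested. Time and the TiCY part of the label cannot be told apart in qNSC2 of pJ either.

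Between genotypes, 4 members rose in KO against TiCY vSVZ GLAST sums and none fell (edgeR, 2 and 3 sums), against 0.315% and 0.282% of genes. The member median was 0.40 and the all-gene median -0.12. Srebf1 had 561 and 469 TMM CPM in KO (2 d and naive), against 209.8, 157 and 332 TMM CPM in TiCY (naive, 2 d and 21 d), and rose by 1.501 ± 0.40 (adjusted p = 0.0346), with no overlap. Mvd had 35.1 and 67.3 TMM CPM in KO, against 12.2, 11.5 and 52.0 TMM CPM in TiCY (2.04 ± 0.52, adjusted p = 0.0207). Tm7sf2 had 50.7 and 101.5 TMM CPM in KO, against 30.5, 14.8 and 88.8 TMM CPM in TiCY (1.76 ± 0.45, adjusted p = 0.0221). Lcat had 49.3 and 64.9 TMM CPM in KO, against 46.1, 3.78 and 70.8 TMM CPM in TiCY (2.079 ± 0.53, adjusted p = 0.0224). The last 3 overlapped through the 21 d sum of TiCY. No call was left without pH or with cells weighted equally, and all KO sums come from letter pJ, so genotype and letter cannot be told apart.

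In the striatum no member was called between genotypes (edgeR, 0.0223% of genes rose and 0.959% fell; 1 member had an unadjusted p under 0.05; DESeq2 called none), and 26 lay above 0. Within labelled naive types, KO against TiCY vSVZ astrocytes (79 and 114 cells) had 6 members higher and 0 lower, against 5.86% and 8.51% of genes. Mvd had 93.8 and 17.2 CPM, Stard4 88.1 and 19.4 CPM, Tm7sf2 127 and 37.2 CPM, Fdft1, the squalene synthase, 196 and 78.3 CPM, Srebf1 515.5 and 244 CPM and Dhcr7, a last-step reductase, 43.5 and 12.4 CPM in KO and TiCY. KO against TiCY striatal astrocytes (35 and 131 cells) had 8 higher and 2 lower, against 8.57% and 13.2%. Stard4 had 121 and 14.9 CPM, Mvd 87.7 and 29.6 CPM, Msmo1 422 and 178 CPM and Srebf1 358 and 168 CPM in KO and TiCY. In naive qNSC2 (31 and 39 cells) 6 were higher and 3 lower, against 16.7% and 19.2%; Mvd had 32.1 and 2.38 CPM and Srebf1 561 and 196 CPM in KO and TiCY. Srebf1 and Mvd were thus past the fold in all 3 naive types, each of 1 letter per genotype.

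A group that the labels call neurogenic striatal astrocytes was large enough to describe in KO pJ at 2 d. Against striatal astrocytes of the same letter and time (27 and 82 cells) they had 5 members higher and 8 lower, against 21.6% and 18.9% of genes. Lcat had no count (up to 1.40 CPM) in neurogenic striatal astrocytes and 327 CPM in striatal astrocytes. Npc1 had 38.2 and 160 CPM, Soat1 38.9 and 153 CPM, Apoe 4071 and 12320 CPM and Srebf1 174 and 415 CPM in neurogenic and other striatal astrocytes. Idi1, at 24.6 and 2.66 CPM, Stard4, at 33.7 and 5.73 CPM, and Fdps, at 133 and 54.3 CPM, were among the higher ones. The other sterol and fatty acid genes had no edgeR call at 21 d, in the striatum at 2 d, between vSVZ genotypes, in the ASTRO sort, or in naive qNSC2 and striatal astrocytes against vSVZ astrocytes, and 1 sterol gene, Apod, fell in KO striatal sums (1.48 TMM CPM in KO and 66.7 in TiCY, adjusted p = 0.0335).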

How the data were processed

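Single-cell RNA was read by a Smart-seq3-based scNMT-seq protocol in mouse brain cells, per the labels' protocols. The submitters' processing notes name STAR, featureCounts and GRCm38 (mm10), without versions, and do not say whether UMIs were collapsed. The authors deposited raw counts per gene and cell. Cells were tied to labels by title and plate letter; 603 cells of the main table matched no label and were not used, and a second table of ischemia cells was not used.

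Counts were summed over the cells of 1 type or sort in 1 letter (at least 3 cells; 901249 to 27807009 counts a sum among WT types) and tested with edgeR 4.0.16 (quasi-likelihood, limma 3.58.1, R 4.3.3), TMM factors, filterByExpr and Benjamini-Hochberg adjustment over all genes tested, threshold 0.05. Fits covered 22 sums of WT types (14915 genes, 16 residual degrees of freedom), 12 of WT sorts (14348 genes, 8), 12 of naive pJ and pM types (16009 genes, 6), and 5 GLAST sums a region (22409 and 24153 genes, 1 each, so that the spread came from the trend over genes). P-values of the first 2 fits measure the spread between letters. In the fit of naive types letter and genotype are the same split, with pJ KO and pM TiCY, so its spread mixes both. P-values of the GLAST fits rest on the trend over genes, and both KO sums are of letter pJ. DESeq2 1.42.0, median-of-ratios scaling, no filter, cells weighted equally, the letter as a block, only the 2 groups compared, within library sets and leaving out letters were alternatives; leaving out labelled oligodendrocytes of the NSC sort was added after seeing the data. Same-letter sums deviated together (r 0.2117 to 0.643 among WT types and sorts, 0.2581 and 0.2248 between naive types, and 0.07308 for naive neuroblasts and qNSC2), and the series' design text calls a letter a biological replicate. Groups of 1 letter with at least 10 cells were compared without a test, by CPM with exact 95% Poisson intervals. The test was also run on simulated counts with independent sums and large changes. Sums of these data are not independent within a letter, so no error rate here rests on that run.

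Values per letter are given for members past the threshold, at most the 6 of smallest p; other sterol and fatty acid genes are given by counts with at most 3 examples. Members, lists and rules were chosen with earlier results of these data known. Gene models of GENCODE M21 showed exons of another gene on the same strand for 2 members, Tm7sf2 and Fdps, and on either strand for 10, whose counts are less certain.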

Additional observations from a re-analysis of the deposited data

Results flagged for a closer look

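Letters were compared within each WT vSVZ type that had 4 or 5 letters. The cut-off flags about 1 in 20 sets of independent, normally distributed values. Levels were not transformed and pairs shared letters, so an excess over chance was not tested. Of 96 member and type pairs, 10 had 1 letter far from the others. In every one that letter was pD, whose cells came from a GLAST sort, unlike those of pA to pC and pE, and whose neuroblast sum held 7 cells and 901249 counts. Among neuroblasts, pD was highest for Apoe (1940 TMM CPM, against 10.9 to 34.3 in the others), Ebp (186.7, against 16.9 to 32.5), Pmvk (270.2, against 17.4 to 49.1), Srebf1 (99.49, against 0.787 to 8.47) and Tm7sf2 (23.34, against 4.42 to 7.41). It was lowest for Sc5d (0, against 58.7 to 70.0). Among qNSC1, pD was highest for Apoe (35420 TMM CPM, against 6588 to 14740) and lowest for Idi1 (10.82, against 124 to 169). Among qNSC2, pD was highest for Apoe (22070 TMM CPM, against 4427 to 5811) and Lcat (65.17, against 0 to 4.48).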

How the results depend on the processing

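No called member changed its direction under any alternative, while under median-of-ratios scaling members that were not called changed sign in 7 comparisons (1 each between qNSC2 and qNSC1, aNSC and qNSC2, neuroblasts and TAP, OLIGO and NSC sorts, and vSVZ genotypes, and 2 each in naive neuroblasts against qNSC2 and in the striatum at 2 d). Of the counts recomputed, 146 stayed within 1.5 times the count given, counts of 0 that stayed 0 among them. That number has no total beside it and is not a share. For single called members, 20 calls were lost and 6 kept without pA, and the same without pB. Within pC and pD 11 were lost and 1 kept, while without pD 12 were kept. For neuroblasts against qNSC1 (10 members called) DESeq2 and the letter as a block each called 16, pC and pD alone 0, and leaving out 1 letter gave 2 to 12. For the NB against the NSC sort (12) leaving out 1 letter gave 1 to 9. For oligodendrocytes against qNSC1 (2) DESeq2 and equal weights for cells called 7, the block 5, only these types in the fit 6, pA, pB and pE alone 4, pC and pD alone 1, and leaving out 1 letter 1 to 5. For the OLIGO against the NSC sort (2) DESeq2 called 7, equal weights 5, only these sorts in the fit 1, and leaving out 1 letter 0. For qNSC2 against qNSC1 (0) equal weights called 1; for aNSC against qNSC2 (0) DESeq2 and pA, pB and pE alone called 1; for TAP against aNSC (0) leaving out 1 letter gave 0 to 1; for neuroblasts against TAP (0) it gave 0 to 1, and pA, pB and pE alone gave 3. For naive qNSC2 against vSVZ astrocytes (0) DESeq2 and no filter each called 1, and for naive neuroblasts against qNSC2 (3) DESeq2 called 7, no filter 8 and equal weights 5. For GLAST sums, equal weights called 0 in the striatum at 2 d (1), 3 in the vSVZ at 2 d (6) and 0 between vSVZ genotypes (4), and leaving out pH gave 3 and 0 in the last 2. The causes were not tested. The share of all genes called under each alternative was not recorded, so these counts have no background beside them. The letter block moved no other count by over 1.5 times. Leaving out other letters left no spread to estimate in the GLAST fits and was not run in the naive ones, and adding cells of the second table was not run. Depth limits members at low CPM most, above all in sums of 7 to 15 neuroblasts.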

Other observations

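Nsdhl stood at different levels in the library sets. In WT letters it had 53.6, 38.5, 27.8, 1.05 and 62.7 TMM CPM in qNSC1 of pA to pE, and WT striatal astrocytes of pE had 68.0 CPM with counts in 83.3% of cells. Striatal astrocytes of pL, WT with the TCF-Lef reporter, had 593 CPM with counts in 84.8% of cells, and those of naive TiCY mice (pM) had 397 CPM with counts in 86.3%.

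Oligodendrocytes of naive TiCY mice (pM, 13 cells) had 620.1 CPM of Abcg1 with counts in 100% of cells, and WT oligodendrocytes had 189.5, 232.9 and 993.8 CPM in pA, pB and pC. They were not part of a test. In the qNSC1 sums, letter pD lay below every other letter for 15 members and above every other letter for 9.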
